A study of Mus musculus with 7 samples.

Results

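The 9 genes described here encode carriers that move drugs, bile acids and other organic anions into and out of hepatocytes. They comprised 4 uptake carriers, Slco1a1, Slco1a4, Slco1b2 and Slc22a7, and 5 efflux carriers, Abcb1a, Abcb4, Abcc2, Abcc3 and Abcg2. A probe was taken when the gene name in the scanner file, or the current symbol of its accession, was 1 of these names. This gave 13 probes of 9 genes among 27583 genes and unnamed probes on the array, and 7 of the 9 genes were matched by accession. All 9 were tested, each because its probe was well above background (the scanner software's flag for a spot clearly brighter than its surroundings) on every array of at least 1 group. For 5 of the genes that group was the hepatocyte array alone, so counts over the members carry that condition.

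Cells of 3 kinds from C57BL/6 mice were compared by total RNA, labelled with Cy3 and hybridised to 7 Agilent arrays of 1 colour. Embryonic fibroblasts (MEF, 3 arrays) were prepared separately from embryos at 13.5 days post coitum. Induced hepatocyte-like cells (iHep, 3 arrays) were derived from MEFs and came as types 4α1, 4α2 and 4α3, here types 1 to 3, with 1 array each. Hepatocytes from adult mouse liver gave 1 array. The study is known to have made iHep cells by adding Hnf4a with a Foxa factor to fibroblasts, but the sources used here do not give the meaning of the last digit of a type, nor the number of clones or animals behind an array. The MEF 2 and MEF 3 arrays differed by less than repeated spots on a single array would predict (0.526 to 0.878 times that spread, against 3.70 to 4.20 times for MEF 1 and MEF 2) and were counted as 1 sample, which left MEF n = 2, iHep n = 3 and hepatocyte n = 1.

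Hepatocytes take up bile acids, bilirubin, hormones and many drugs from the blood through carriers of the Slco and Slc22 families on the sinusoidal membrane. After metabolism, ATP-driven pumps of the Abc families export the products, either across the canalicular membrane into bile or back across the basolateral membrane into blood. The uptake carriers and several of the canalicular pumps are classic features of the mature liver cell, while some pumps also work in gut, kidney and barrier epithelia.

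Promoter windows are shown for 3 members that were detected in hepatocytes and on none of the iHep arrays (Slco1a1, Slco1b2, Abcc2) and for 2 that were higher in iHep than in MEF (Abcb1a, Abcb4). Each is the 250 bases before the RefSeq transcription start in build GRCm38.p6, written 5′ to 3′ on the gene's strand. Windows were found for 7 of the 9 genes. Capitals mark AGGTCA (or TGACCT on the other strand), the half-site of many nuclear receptors, and GGGCGG, the GC box read by Sp1. The windows lie at chr6:141946963-141947212 on the minus strand for Slco1a1, and on the plus strand at chr6:141629268-141629517 for Slco1b2, chr19:43782058-43782307 for Abcc2, chr5:8566841-8567090 for Abcb1a and chr5:8893471-8893720 for Abcb4.
Slco1a1: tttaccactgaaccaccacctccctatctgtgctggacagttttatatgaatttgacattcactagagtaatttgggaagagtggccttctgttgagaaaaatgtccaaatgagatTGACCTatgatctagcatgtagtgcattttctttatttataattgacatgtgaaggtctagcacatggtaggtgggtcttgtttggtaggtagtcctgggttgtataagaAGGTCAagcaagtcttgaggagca
Slco1b2: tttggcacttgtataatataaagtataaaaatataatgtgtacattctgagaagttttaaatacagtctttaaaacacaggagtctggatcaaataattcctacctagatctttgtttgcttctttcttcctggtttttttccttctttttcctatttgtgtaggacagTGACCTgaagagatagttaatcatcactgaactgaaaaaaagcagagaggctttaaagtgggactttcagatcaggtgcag
Abcc2: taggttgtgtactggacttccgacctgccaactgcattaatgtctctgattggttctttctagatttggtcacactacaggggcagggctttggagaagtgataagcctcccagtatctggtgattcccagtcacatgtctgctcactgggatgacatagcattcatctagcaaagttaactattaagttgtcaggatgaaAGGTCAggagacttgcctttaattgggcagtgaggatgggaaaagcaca
Abcb1a: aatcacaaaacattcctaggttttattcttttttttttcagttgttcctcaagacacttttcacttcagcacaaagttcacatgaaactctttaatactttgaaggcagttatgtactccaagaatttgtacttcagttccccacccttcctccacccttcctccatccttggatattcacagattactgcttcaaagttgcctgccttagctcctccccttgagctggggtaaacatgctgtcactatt
Abcb4: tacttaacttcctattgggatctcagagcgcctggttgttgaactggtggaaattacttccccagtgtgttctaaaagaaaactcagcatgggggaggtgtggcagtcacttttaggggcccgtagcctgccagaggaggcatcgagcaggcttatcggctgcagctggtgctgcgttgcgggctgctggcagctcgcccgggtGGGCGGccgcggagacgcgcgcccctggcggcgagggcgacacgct

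Both strands were searched, and the share of all 32851 RefSeq windows of this length that hold a motif is its background. AGGTCA was in the windows of Slco1a1, Slco1b2 and Abcc2 and in 14.0% of all. GGGCGG was in the Abcb4 window and in 32.7% of all. The other motifs searched are not marked: TATAAA (12.4% of all windows) was in Slco1a1 and Slco1b2, CCAAT (33.8%) in Abcb4 and Abcc2, and TGACNNNGC, the core of the antioxidant response element (10.2%), in Abcc2. The Abcb1a window held none of these letters. Of the windows not printed, Slco1a4 held CCAAT, and the 3 windows of Abcg2 held AGGTCA or GGGCGG.

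A level is a probe's log2 signal less the array's 75th percentile, so that a probe at 0 is brighter than most. Levels of a probe were compared between arrays and not with those of other probes. Changes are log2 differences ± SE from limma, with Benjamini-Hochberg adjusted p over 19135 genes. The single hepatocyte array has no spread of its own and was given that of the other groups, the iHep spread is that between types, and p-values reflect the spread of these samples alone, which may be technical. Probe positions are those of the array's annotation in build mm8, whose exon and intron annotation was not used here.

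**Figure D1:**
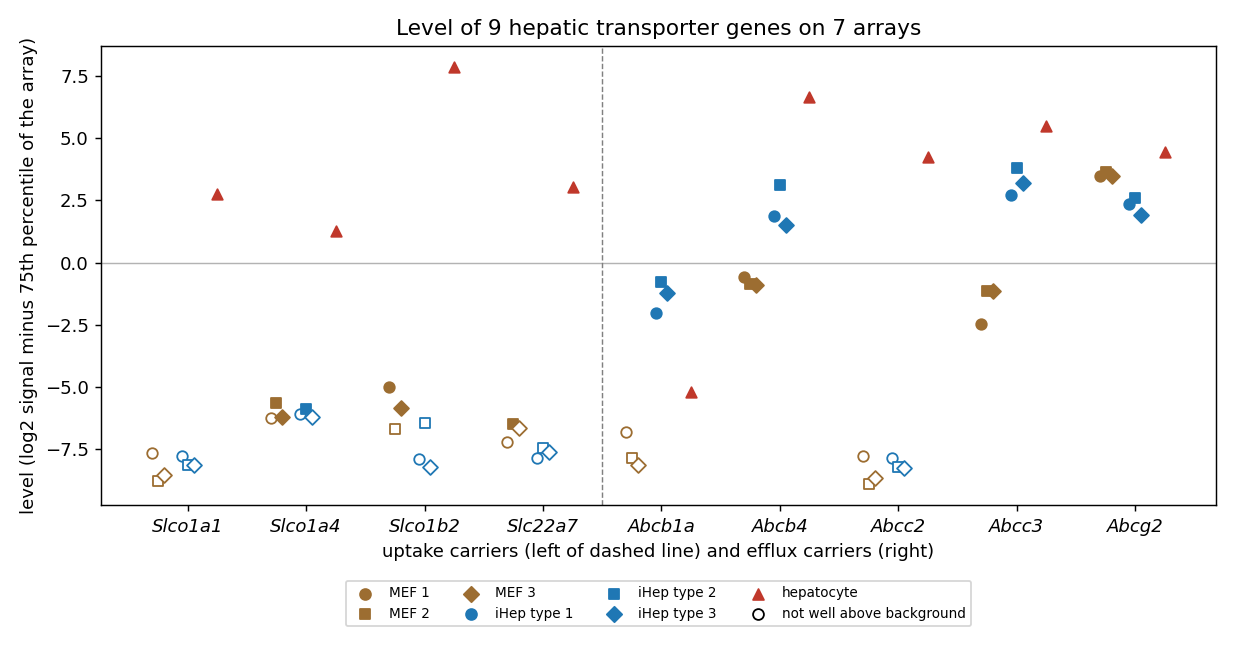
Level of each member (y axis, log2 signal minus the 75th percentile of the array) for the 4 uptake carriers (left of the dashed line) and the 5 efflux carriers (right), with 1 point for each of the 7 arrays and open points for probes not well above background. The 4 uptake carriers and Abcc2 are high only on the hepatocyte array, Abcb1a is highest on the iHep arrays, and Abcg2 is lowest there.

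The 4 uptake carriers were high in hepatocytes and remained at or near background in iHep cells, where none differed from MEF by the test. Slco1a1, the anion carrier Oatp1a1 of the sinusoidal membrane (probe at chr6:141870919-141870977), had levels of -7.65, -8.78 and -8.53 on the 3 MEF arrays, -7.75, -8.11 and -8.14 on iHep types 1 to 3, and 2.75 on the hepatocyte array. Its 6 low values were all not well above background. The change was 0.15 ± 0.35 from MEF to iHep (adjusted p = 0.790, 95% interval -0.76 to 1.06) and 10.90 ± 0.48 from MEF to hepatocytes (adjusted p = 0.000226). Where no array of the dimmer group had the probe well above background, the fold is a bound, set against the higher of the probe's own level and the lowest level well above background on each array. Fitted changes of such genes are no bounds. On that basis Slco1a1 was at least 513-fold higher in hepatocytes than in MEF and at least 445-fold higher than in iHep. A second Slco1a1 probe (chr6:141871298-141871357) was likewise not well above background on the 6 MEF and iHep arrays, from -9.02 to -7.86, and reached 3.82 in hepatocytes.

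Slco1a4, the related carrier Oatp1a4 (chr6:141768560-141768619), had MEF levels of -6.23, -5.63 and -6.22, iHep levels of -6.08, -5.87 and -6.19 and a hepatocyte level of 1.25. MEF and iHep values overlapped, and only MEF 2, MEF 3 and iHep type 2 were well above background among them. The iHep change was 0.03 ± 0.21 (adjusted p = 0.927, 95% interval -0.50 to 0.57), and hepatocytes were 161-fold above MEF (7.33 ± 0.28, adjusted p = 0.000209). Slco1b2, the liver carrier Oatp1b2 for bile acids, bilirubin and statins (chr6:141648361-141648420), had MEF levels of -4.99, -6.69 and -5.83, iHep levels of -7.87, -6.46 and -8.22, and reached 7.86 in hepatocytes. MEF 1 and MEF 3 were well above background and no iHep array was. Its iHep change was -1.90 ± 0.67 (adjusted p = 0.107), with type 2 above MEF 2. Without iHep type 2 this change was -2.42 with an adjusted p of 0.0474, so 1 array decided the call. Hepatocytes exceeded MEF 11467-fold (13.49 ± 0.90, adjusted p = 0.000499) and iHep at least 15433-fold.

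Slc22a7, the organic anion carrier Oat2 (chr17:45895512-45895571), had MEF levels of -7.21, -6.47 and -6.63, iHep levels of -7.83, -7.47 and -7.59 and a hepatocyte level of 3.04. Each iHep value was below each MEF value, but only MEF 2 was well above background. The change of -0.75 ± 0.27 did not pass the test (adjusted p = 0.114). With the 3 MEF arrays taken as separate samples it did, at -0.86 (adjusted p = 0.0334). Hepatocytes were above MEF by 9.92 ± 0.37 (adjusted p = 0.000209), or 969-fold, and 581-fold with dim MEF spots held at the lowest level well above background on their array, an alternative chosen after seeing the data. They were at least 546-fold above iHep.

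Among the efflux carriers, Abcb1a, Abcb4 and Abcc3 rose in iHep cells, Abcg2 fell, and Abcc2 was not detected outside hepatocytes. Abcc2, the canalicular pump Mrp2 for bilirubin glucuronide and other conjugates (chr19:43890900-43890959), had MEF levels of -7.76, -8.90 and -8.65 and iHep levels of -7.87, -8.22 and -8.24. None of these 6 was well above background, while the hepatocyte level was 4.24. The iHep change was 0.16 ± 0.36 (adjusted p = 0.781, 95% interval -0.76 to 1.07). Hepatocytes were higher by 12.50 ± 0.48 (adjusted p = 0.000209), at least 1442-fold above MEF and at least 1250-fold above iHep.

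Abcb1a, which encodes the multidrug exporter P-glycoprotein of gut and barrier epithelia (chr5:8753985-8754044), had MEF levels of -6.82, -7.86 and -8.13, none well above background. The iHep types had -2.04, -0.79 and -1.22, and the hepatocyte array -5.18, all well above background. The 3 groups did not overlap, and iHep cells stood highest. The rise from MEF to iHep was 6.06 ± 0.52 (adjusted p = 0.00284), at least 30.0-fold, and iHep exceeded hepatocytes 14.2-fold (3.83 ± 0.66, adjusted p = 0.00851). Background correction by normexp with an added offset of 50, an alternative, gave a smaller rise of 2.36 (adjusted p = 0.00478). The hepatocyte array exceeded MEF at least 2.11-fold (2.23 ± 0.70, adjusted p = 0.0471), and that call was lost in 8 of 12 alternatives, among them quantile normalization (1.87, adjusted p = 0.0819), normexp (0.41, adjusted p = 0.421) and leaving out MEF 2 and MEF 3 (1.64, adjusted p = 0.138) or iHep type 3 (adjusted p = 0.0705).

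Abcb4, the canalicular phosphatidylcholine translocase Mdr2 (chr5:8965114-8965173), was well above background on every array. Its MEF levels were -0.56, -0.86 and -0.91, its iHep levels 1.86, 3.13 and 1.50, and its hepatocyte level 6.64. The groups rose in that order without overlap. Abcb4 was 7.41-fold higher in iHep than in MEF (2.89 ± 0.53, adjusted p = 0.0200), 165-fold higher in hepatocytes than in MEF (7.37 ± 0.71, adjusted p = 0.00129) and 22.3-fold lower in iHep than in hepatocytes (-4.48 ± 0.67, adjusted p = 0.00543). The iHep call was lost against the MEF array on the same slide (2.73, adjusted p = 0.118) and without MEF 1 (3.05, adjusted p = 0.0996).

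Abcc3, the basolateral conjugate pump Mrp3 (chr11:94159447-94159506), was also well above background throughout, with MEF levels of -2.49, -1.16 and -1.15, iHep levels of 2.72, 3.81 and 3.18 and a hepatocyte level of 5.49. Every iHep value lay above every MEF value and below the hepatocyte value. It was 33.3-fold higher in iHep than in MEF (5.06 ± 0.52, adjusted p = 0.00443) and 158-fold higher in hepatocytes than in MEF (7.31 ± 0.70, adjusted p = 0.00128). It was 4.76-fold lower in iHep than in hepatocytes (-2.25 ± 0.66, adjusted p = 0.0409). That call was lost with quantile normalization (-1.47, adjusted p = 0.136), in the deposited table of processed values (-1.46, adjusted p = 0.135), with no filter on dim probes (adjusted p = 0.0547) and without iHep type 1 (-1.99, adjusted p = 0.0864) or type 3 (-2.23, adjusted p = 0.0758).

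Abcg2, the pump Bcrp for sulfate conjugates, urate and drugs (probe blocks within chr6:58620163-58621845), was bright on all arrays and moved the other way. Its levels were 3.50, 3.62 and 3.49 in MEF, 2.34, 2.60 and 1.90 in iHep and 4.44 in hepatocytes. The iHep arrays were all below the MEF arrays and the hepatocyte array was above them. Abcg2 fell by 1.24 ± 0.26 in iHep (-1.24, adjusted p = 0.0295, 2.37-fold) and was 4.48-fold lower there than in hepatocytes (-2.16 ± 0.33, adjusted p = 0.00590). The fall was not called within the shared slide (-1.22, adjusted p = 0.141), without MEF 1 (-1.27, adjusted p = 0.133) or without iHep type 1 (-1.27, adjusted p = 0.0810). Hepatocytes against MEF gave 0.92 ± 0.35 (adjusted p = 0.0790), which passed with 3 separate MEF arrays (0.91, adjusted p = 0.0359) and without iHep type 3 (adjusted p = 0.0328).

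**Figure D2:**
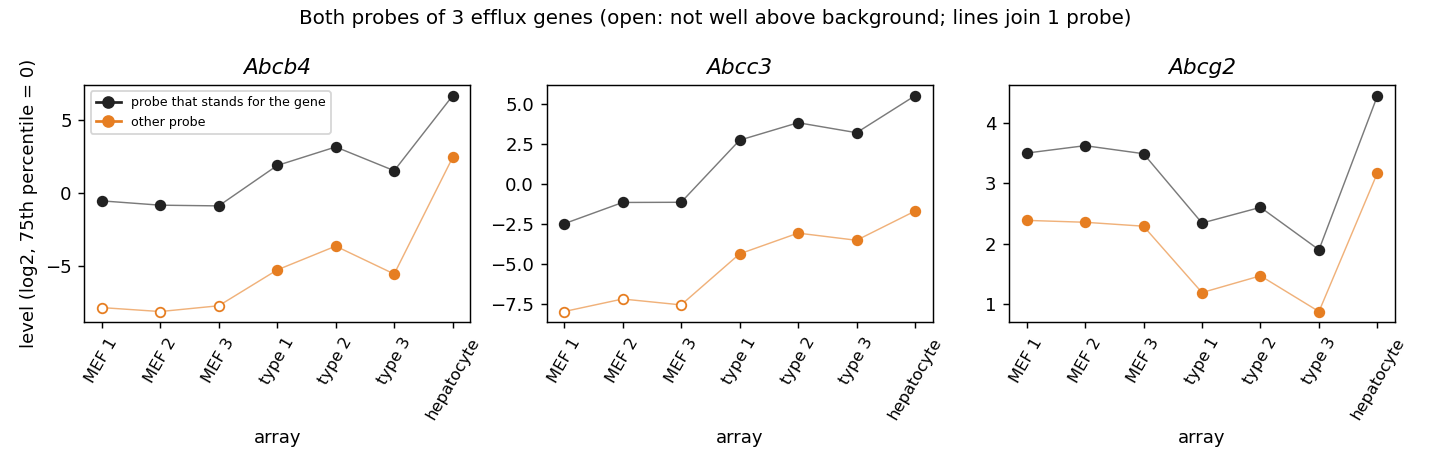
Levels (y axis, log2 signal minus the 75th percentile) on the 7 arrays (x axis) for both probes of Abcb4, Abcc3 and Abcg2, with black for the probe that stands for the gene, orange for the other, lines joining 1 probe, and open points not well above background. In each gene both probes place the 3 groups in the same order and iHep type 2 above types 1 and 3.

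Second probes of the efflux carriers gave the same order of groups, as the plot of both probes shows. The other Abcb4 probe (chr5:8946962-8947021) was not well above background in MEF, had iHep levels of -5.30, -3.67 and -5.58 and reached 2.42 in hepatocytes. The other Abcc3 probe (chr11:94180461-94180520) had iHep levels of -4.36, -3.07 and -3.52 against -1.70 in hepatocytes and was not well above background in MEF. At the other Abcg2 probe (within chr6:58607928-58612858) the MEF arrays had 2.39, 2.35 and 2.29, the iHep arrays 1.19, 1.47 and 0.88 and the hepatocytes 3.17. Both probes of a gene share its RNA and are not replicates. No spot of a member was saturated.

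Among the iHep types, type 2 had the highest level of the members detected on all 3 iHep arrays. At all 7 probes (4 genes) that were well above background on the 3 iHep arrays, type 2 was above both others. Type 1 was lowest at 3 of them and type 3 at 4. Type 2 exceeded type 1 at the main probes 2.37-fold for Abcb1a, 2.41-fold for Abcb4, 2.13-fold for Abcc3 and 1.20-fold for Abcg2. It exceeded type 3 1.35-fold, 3.09-fold, 1.54-fold and 1.63-fold for the same genes in that order. With 1 array per type these differences were not tested, and the share of all genes highest in type 2 was not counted. Carriers of the wider lists below varied, with Abcb1b highest in type 2 (2.67), Slc47a1 in type 3 (2.22) and Abcc4 in type 1 (3.12).

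Counted over the members, iHep against MEF called 0 of 4 uptake carriers by limma (2 were lower, Slco1b2 and Slc22a7, at an unadjusted p under 0.05), while 3 of 5 efflux carriers were higher and 1 was lower. Among all 19135 genes 23.3% were called, 10.1% higher and 13.2% lower. The share of all genes at an unadjusted p under 0.05 was not counted. The median change was -0.36 for the uptake carriers, 2.89 for the efflux carriers and -0.04 for all genes, and the ranges of the classes overlapped (-1.90 to 0.15 and -1.24 to 6.06). The iHep arrays shared a slide with MEF 1 only, and the values against that array on types 1, 2 and 3 were 4.78, 6.03 and 5.60 for Abcb1a and 5.20, 6.29 and 5.67 for Abcc3. Those genes kept their calls within the slide (5.47, adjusted p = 0.0225, and 5.72, adjusted p = 0.0167).

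Hepatocytes against MEF called 8 of 9 members, all higher, comprising 4 of 4 uptake carriers and 4 of 5 efflux carriers. The 4 uptake carriers and Abcc2 entered the test by the hepatocyte array alone. That condition favours values higher in hepatocytes, here and in iHep against hepatocytes. Over all genes 53.5% were called, 28.4% higher and 25.1% lower. The median change was 10.41 for the uptake carriers, 7.31 for the efflux carriers and 0.14 for all genes. Normexp correction lowered the uptake median to 6.29. The hepatocyte array lay alone on its slide, so slide and cell type cannot be told apart there, and in bulk RNA fewer cells of a type and less RNA per cell cannot be told apart either.

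Set against hepatocytes, iHep cells were lower for 8 of 9 members and higher for Abcb1a, where 49.2% of all genes were called, 22.1% higher and 27.1% lower. The median difference was -10.71 for the uptake carriers, -2.25 for the efflux carriers and -0.17 for all genes. The uptake carriers ranged from -15.38 to -7.30 and the efflux carriers from -12.34 to 3.83. The uptake median was -6.33 with normexp. The 3 comparisons share their samples, and their values are given side by side. Quantile normalization moved the median of all genes to -0.0017 for hepatocytes against MEF and to 0.02 for iHep against hepatocytes.

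**Figure D3:**
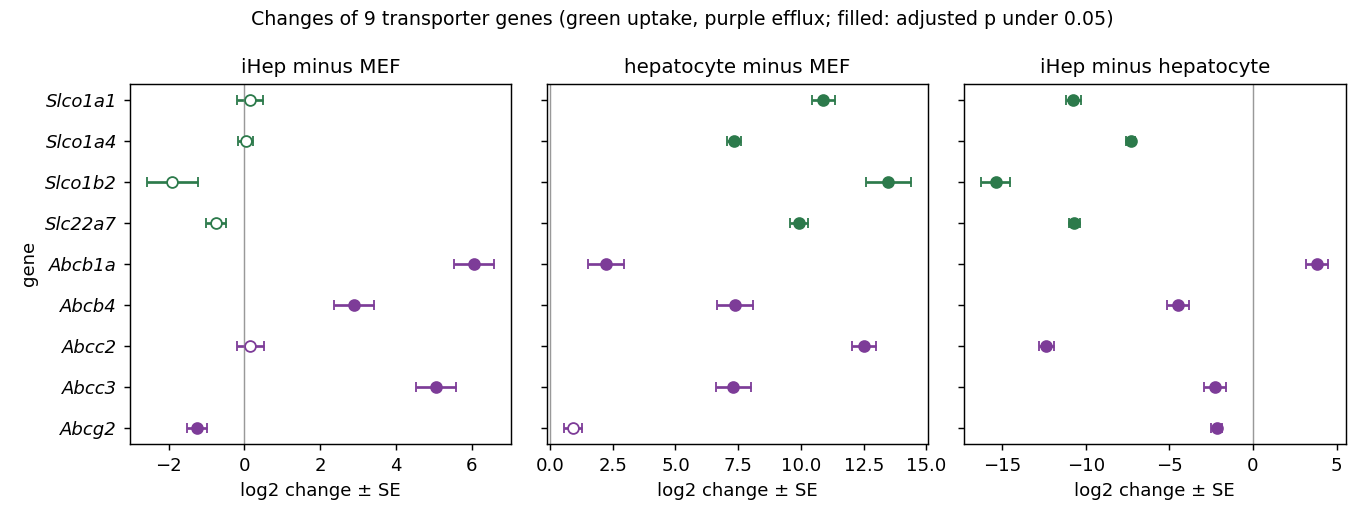
Log2 change ± SE (x axes) of the 9 members (y axis, uptake in green, efflux in purple) for iHep minus MEF, hepatocyte minus MEF and iHep minus hepatocyte, with filled points at an adjusted p under 0.05. All 4 uptake carriers have open points at left and lie between -15.38 and -7.30 at right, while Abcb1a is the only member above 0 at right.

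A wider list of 22 other uptake carriers had 20 on the array and 18 tested. In iHep against MEF 6 were higher, 1 was lower and 11 were not called (median 0.51), where 10.1% of all genes were higher and 13.2% lower. Slco2b1, the broadly expressed anion carrier Oatp2b1, was well above background on 1 of 3 MEF arrays and rose by 5.39 ± 0.97 (adjusted p = 0.0191), which is 19.9-fold with the dim MEF spots held at that lowest level and 41.9-fold without. The rise was not called within the shared slide (6.14, adjusted p = 0.0704) or without MEF 1 (4.64, adjusted p = 0.116). Slco2a1, the prostaglandin carrier, rose 38.5-fold (5.27 ± 0.31, adjusted p = 0.00105) from MEF levels of 0.96, 0.18 and 0.08 to 5.89, 5.93 and 5.61, above the hepatocyte level of 4.30 by 1.51 ± 0.39 (adjusted p = 0.0282). The excess over hepatocytes was not called without iHep type 1 (1.47, adjusted p = 0.0730) or type 2 (1.45, adjusted p = 0.0673). Slc22a4, the ergothioneine carrier, rose by 3.38 ± 0.45 (adjusted p = 0.00832; 2.90 with adjusted p = 0.0537 without MEF 1), and Slc22a18, an orphan member of the family, by 3.14 ± 0.23 (adjusted p = 0.00181). The decrease was that of Slc22a15 (-0.68 ± 0.17, adjusted p = 0.0473), whose second probe had a higher mean level in iHep than in MEF and which was not called on the shared slide (adjusted p = 0.177) or without any 1 of iHep types 1, 2 and 3 or MEF 1 (adjusted p from 0.0674 to 0.174).

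The main sodium-dependent bile acid carrier of hepatocytes was likewise far higher in hepatocytes than in MEF or iHep. This carrier, Slc10a1 (Ntcp), was well above background on none of the MEF and iHep arrays, from -9.10 to -7.92, and its hepatocyte level was 5.12, at least 2299-fold above iHep. In hepatocytes against MEF the wider list had 15 higher, 1 lower and 2 not called (28.4% and 25.1% of all genes were higher and lower). In iHep against hepatocytes it had 2 higher, 11 lower and 5 not called (22.1% and 27.1% of all genes). Genes such as Slc10a1 entered the test by the hepatocyte array alone, and these counts carry that condition.

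The other efflux carriers, 19 listed and 18 tested, had 6 higher, 1 lower and 11 not called in iHep against MEF (median 0.71). Among all genes 10.1% were higher and 13.2% lower, with a median of -0.04. The 1 lower was Rala, listed here though not itself a carrier, and its second probe differed by only -0.27. Slc47a1, the proton-coupled cation exporter Mate1, had MEF levels of -6.99, -6.54 and -8.39, iHep levels of -0.02, 1.49 and 2.22 and a hepatocyte level of 5.21. It rose at least 171-fold in iHep (8.46 ± 0.69, adjusted p = 0.00245). Abcc4, the nucleotide and bile acid exporter Mrp4, rose by 3.54 ± 0.34 (adjusted p = 0.00361) and, like Abcb1a, stood higher in iHep (3.12, 2.25 and 2.52) than in hepatocytes (-2.31), by 4.94 ± 0.43 (adjusted p = 0.00107). Atp8b1, a phosphatidylserine flippase of the canalicular membrane, rose by 3.61 ± 0.57 (adjusted p = 0.0134), and Abcc6 by 3.53 ± 0.38 (adjusted p = 0.00491), a call that normexp removed (0.64, adjusted p = 0.0536). Rala, a small GTPase of exocytosis, fell by 1.01 ± 0.21 (adjusted p = 0.0292), but not within the shared slide (-0.84, adjusted p = 0.147), without MEF 1 (-1.19, adjusted p = 0.0832), or without iHep type 1 (-0.95, adjusted p = 0.0932) or type 2 (-0.99, adjusted p = 0.0882).

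Abcb1b, the second mouse P-glycoprotein gene and the closest relative of Abcb1a, rose by 2.35 ± 0.58 in iHep (adjusted p = 0.0451), with MEF levels of -0.52, -0.78 and -0.86 and iHep levels of 1.61, 2.67 and 0.76. The call was lost in 8 alternatives or omissions, including the shared slide (2.19, adjusted p = 0.198), leaving out MEF 1 (2.50, adjusted p = 0.162) and leaving out iHep type 1 (2.38, adjusted p = 0.107). Its 3 probes disagreed in hepatocytes, at -3.29, 2.15 and -8.00, so no direction is given there. Abcb1a and Abcb1b are close paralogs, probe sequences were not used here, and cross-hybridisation between their probes was not tested.

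Abcb11, the bile salt export pump, was at -4.42, -4.84 and -4.93 in MEF and -5.33, -5.28 and -5.04 in iHep (-0.56 ± 0.23, adjusted p = 0.143), against 8.00 in hepatocytes. Abcc1, the broadly expressed pump Mrp1, was bright in MEF (2.28, 2.40 and 2.36) and iHep (2.63, 1.94 and 2.08), with a change of -0.11 ± 0.27 (adjusted p = 0.793), and was at -4.42 in hepatocytes (-6.75 ± 0.36, adjusted p = 0.000315). Over the list, hepatocytes against MEF had 11 higher, 4 lower and 3 not called (28.4% and 25.1% of all genes were higher and lower), and iHep against hepatocytes 4 higher, 8 lower and 6 not called (22.1% and 27.1%). The 4 lower in hepatocytes than in MEF, and the 4 higher in iHep than in hepatocytes, include Abcb1b by its brightest probe. The first count was 2, without Abcc4 and Abcb1b, with normexp, with no filter on dim probes, without MEF 1 and without MEF 2 and 3.

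**Figure D4:**
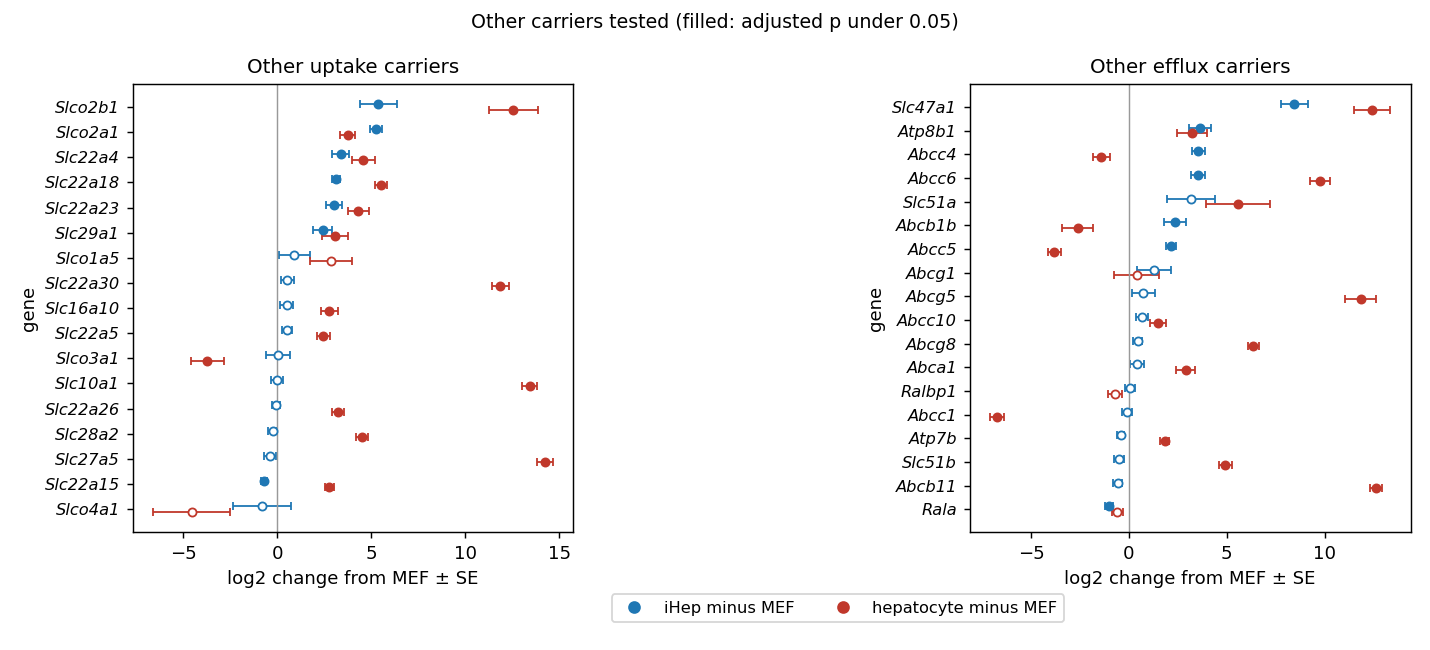
Log2 change from MEF ± SE (x axes) of 17 other uptake and 18 other efflux carriers as listed (y axes), in iHep (blue) and hepatocytes (red), filled at an adjusted p under 0.05. The efflux panel includes Rala, which is not itself a carrier. Slc10a1 and Abcb11 are far right in red and near 0 in blue, while Abcc4 is on opposite sides of 0 in the 2 cell types.

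Of 14 genes for scaffold, trafficking and other proteins of the apical or canalicular membrane, 7 were higher and 2 lower in iHep than in MEF, where 10.1% of all genes were higher and 13.2% lower. Vil1, the microvillus protein villin, rose at least 2429-fold (13.28 ± 0.74, adjusted p = 0.000987) and exceeded hepatocytes 46.7-fold. Ceacam1, a canalicular adhesion protein, rose at least 514-fold at its brightest probe (10.87 ± 1.08, adjusted p = 0.00394). Its other probes, each well above background on 2 of 3 MEF arrays, were 96.4-fold and 48.9-fold higher in iHep than in MEF. Cgn, a tight junction protein, rose by 6.22 ± 0.36 (adjusted p = 0.00105). Myo5b, the motor of apical recycling endosomes, rose by 5.58 ± 0.64 (adjusted p = 0.00574, and 4.81 with dim MEF spots held as above). Anpep, an apical peptidase, fell by 3.55 ± 0.43 (adjusted p = 0.00654; 0.0530 without MEF 1). Msn, the ezrin relative moesin, fell by 1.73 ± 0.35 (adjusted p = 0.0261), a call lost within the shared slide (-1.22, adjusted p = 0.0766) and without any 1 iHep type (adjusted p from 0.0565 to 0.0717). Pdzk1, a scaffold that anchors carriers such as Slco1a1 at the membrane, was well above background on no MEF and no iHep array and reached 4.09 in hepatocytes.

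Of 15 receptors and factors known to regulate carrier genes, 6 were higher and 0 lower in iHep against MEF at an unadjusted p under 0.05 by limma. The share of all genes at that unadjusted threshold was not counted. At an adjusted p under 0.05, 5 were higher and 0 lower, and 10.1% of all genes were higher. The count was 3 with the slide as a block, within the shared slide or without MEF 2 and 3. Hnf4a is a master factor of hepatocyte genes and a factor the study is known to have added. Its brightest probe was not well above background in MEF, with iHep levels of -0.55, -2.58 and 1.57 and a hepatocyte level of 4.56 (iHep against MEF 7.80 ± 1.24, adjusted p = 0.0139). Its call was lost within the shared slide (7.29, adjusted p = 0.0933), without MEF 1 (8.31, adjusted p = 0.0762) and with normexp (3.39, adjusted p = 0.0623). A second Hnf4a probe placed the types in another order, with iHep levels of -0.43, -0.24 and -2.09 and a hepatocyte level of -0.52. The remaining Hnf4a probe was well above background on 2 of 3 MEF arrays, with MEF levels of -6.87, -5.56 and -5.80. Its iHep levels were -4.91, -5.37 and -3.15 and its hepatocyte level was -0.07. At that probe iHep was only 3.48-fold above MEF. The difference there was 1.80, against 7.80 at the brightest probe and 7.39 at the second, so the size of the rise depended on the probe. Nr1i2, the xenobiotic receptor PXR, rose by 7.37 ± 0.84 (adjusted p = 0.00570; 6.32 with dim MEF spots held as above, where 1 of 3 MEF arrays was well above background) and Nr1h3, the oxysterol receptor LXRα, by 3.58 ± 0.33 (adjusted p = 0.00337). Nr1i3, the receptor CAR, had 0.17 ± 0.38 (adjusted p = 0.783) and a hepatocyte change of 7.07 ± 0.51. Among the iHep arrays, Nr1h4, the bile acid receptor FXR, was well above background on that of type 1 alone (-1.58, against -5.93 and -7.25). It was also well above background on 1 of 3 MEF arrays and in hepatocytes, where its level was 4.82. Its change from MEF to iHep was 2.31 ± 1.74 (adjusted p = 0.387, and 1.21 with dim MEF spots held as above).

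Similarity of pattern was described by Pearson r of level over 6 samples among 9872 genes whose level spanned at least 2 log2 units, with no test, since the points share libraries. Slco1a1, Slco1a4, Slco1b2, Slc22a7 and Abcc2 had pairwise r from 0.980 to 0.99995, with 1 bright array and 5 dim samples behind each r. For Abcc2, 421 genes had r over 0.99 and the closest were Upp2, Lrit1 and Cyp4f15. For Slco1a1 there were 418, led by Nat8f5. Slco1b2 had 62, led by Eci2, Aadat and Etd. Abcb1a, with its peak in iHep cells, had 7, led by Fam3b (0.994), Phgr1 and Bicdl2. Abcb4 was closest to Tmem38b (0.999), Hsd17b2 and Sult1b1, and Abcg2 to Ghr (0.998) and Spsb4. The nearest entries to Abcc3 had no gene symbol.

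Whole-array facts bear on these values. The 75th percentile of signal ran from 608 to 1484, and the probes well above background made up 60.2% to 68.7%. All 10 hepatocyte markers on the array were well above background in hepatocytes, 5 to 7 in iHep, where Cyp7a1, Tdo2 and Cyp2e1 were not, and 3 in MEF. Their summed linear level was 2676 in hepatocytes, 52.4 to 395 in iHep and 0.216 to 0.224 in MEF. Of 12 intestinal epithelial markers 9 were well above background on each iHep array (summed linear level 392 to 982, not Cdx1, Muc2 and Sis), 4 or 5 in MEF (0.690 to 1.97) and 9 in hepatocytes (40.5, not Cdx2, Cdx1 and Olfm4). All 11 fibroblast markers stayed well above background in iHep, at summed levels of 57.5 to 175 against 821 to 900 in MEF and 11.8 in hepatocytes. Of 8 endothelial markers 5 were well above background in MEF, 1 in iHep and 8 in hepatocytes, and of 9 macrophage markers 8, 3 to 5 and 9. Of 7 bile duct markers 5 or 6, 6 or 7 and 6 were, and of 6 blood markers 4 to 6, 3 and 5. The part of these cell types in the carrier levels was not tested.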

How the data were processed

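RNA of 7 samples was hybridised to 1-colour Agilent arrays, and per the file headers and the submitters' processing notes spot values came from Agilent Feature Extraction, version 9.5.1.1. The processed signal is an intensity on a linear scale, background-subtracted per the file headers and deposited unscaled. The intensity values of mean and local background, per the file headers, served 1 alternative, as did the authors' deposited table of intensity values (medians of its columns 66.3 to 66.4, r with the matching scanner values on the log2 scale 0.9988 to 0.9999). The sources used here do not say how that table was made. The deposited files also hold other columns, flags of 0 or 1 for outlier, saturated and well-above-background spots.

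Of 43379 non-control spots, 66 to 104 outliers per array were dropped, repeated spots of a probe were averaged, and log2 signal was centred on the 75th percentile. Names came from RefSeq by accession for 24350 probes, by symbol for 6298 and by synonym for 2421, from the file for 7808, and 261 had none. The brightest probe stood for a gene, and 19135 of 27583 genes were tested with limma, version 3.58.1, under R 4.3.3 (lmFit, eBayes, 3 groups in 1 fit, calls at an adjusted p under 0.05). The number of arrays limits precision. The script was tested on simulated data. Every member was named, and from each other list up to 4 called genes per direction by size plus genes set by name. A few listed genes are not reported here, though the list counts include them. The members and all lists were chosen with earlier results of these data known. Alternatives covered background correction, scaling, dim-probe filters and floors, probe choice, slide, and leaving out samples.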

Additional observations from a re-analysis of the deposited data

Results flagged for a closer look

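Abcg2 had changes from MEF of opposite sign in iHep cells and hepatocytes, and the difference itself was -2.16 ± 0.33 (adjusted p = 0.00590 by limma). The iHep change was called (-1.24, adjusted p = 0.0295) but not within the shared slide (adjusted p = 0.141), and the hepatocyte change was not called (0.92, adjusted p = 0.0790). All 3 iHep arrays were below every MEF array and the hepatocyte array was above them at both probes. Among the other named genes, the change from MEF was lower in iHep than in hepatocytes, with opposite signs, for Anpep (-6.49, adjusted p = 0.000978) and, by its brightest probe, Slc22a15 (-3.46, adjusted p = 0.000489). The second Slc22a15 probe was higher than in MEF in both, by 0.95 in iHep and 2.36 in hepatocytes, so the opposite signs rest on 1 probe. For Abcc4 iHep was the higher (4.94, adjusted p = 0.00107), though its hepatocyte change from MEF (-1.41, adjusted p = 0.0491) was not called with normexp (adjusted p = 0.0840) or without MEF 1 (adjusted p = 0.0812). The brightest Abcb1b probe gave 4.97 (adjusted p = 0.00529), but another had a hepatocyte level of 2.15 against an iHep mean of 0.60, so no direction is given.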

How the results depend on the processing

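No paired analysis was possible because the MEF numbers name samples and the iHep numbers name types, so a shared number joins nothing. Of 360 recomputed changes of the 9 carriers (27 results, 16 settings), 322 kept direction and call, 22 lost a call, 4 gained one and 12 changed sign. These settings were not all separate checks. For iHep against MEF, a fit without the hepatocyte array repeated the main values. There the slide as a block, the shared slide and leaving out MEF 2 and 3 gave identical values. Leaving out an iHep array cannot move a hepatocyte change from MEF, only its error. Calls over all genes in iHep against MEF were 4458, 7305 with 3 separate MEF arrays, 1667 with the slide as a block, within the shared slide or without MEF 2 and 3, and 1636 to 4644 with 1 array left out. In that comparison the uptake median was -0.041 with normexp and -0.60 to -0.31 with 1 array left out. The uptake carriers called lower were 1 with 3 separate MEF arrays and 0 to 1 with 1 array left out. The efflux carriers called lower were 0 with the slide as a block, within the slide or without MEF 2 and 3, and 0 to 1 with 1 array left out.

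For hepatocytes against MEF the uptake median was 6.29 with normexp, 10.00 with quantile normalization, 9.99 in the deposited table and 10.74 as a mean over probes. The efflux median was 6.80, 6.58, 6.57 and 6.63 in that order, and 6.64 to 7.31 with 1 array left out. With genes required well above background on all arrays, 2 efflux carriers were higher there and 0 in iHep against hepatocytes. That requirement took Abcb1a, Abcc2 and every uptake carrier out of the test. Abcb1a was the only efflux carrier higher in iHep than in hepatocytes, so the 0 was fixed by the filter and says nothing on Abcb1a. That filter, which tests fewer genes, left 8 other uptake and 4 other efflux carriers higher in hepatocytes than in MEF, 4 and 3 lower in iHep than in hepatocytes, and 2 membrane proteins and 2 regulators higher in iHep than in MEF. Of the 13870 genes that it tested, 3540, 3436 and 1527 were called in those directions, in that order. How many genes of each list it tested was not counted, so smaller list counts may be genes that left the test. For iHep against hepatocytes the uptake median was -6.33, -10.40, -10.40 and -11.04 in the same order and -10.58 with arrays centred on the median, and the efflux median was -1.61 with quantile normalization and -1.60 in the deposited table.

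Of the sign changes in iHep against MEF, that of Slc22a15 was at a called value (-0.68, adjusted p = 0.0473), which became 0.14 as a mean over probes (adjusted p = 0.788). The others were at values not called. Abcc2 had -0.038 with normexp and -0.35 with the slide as a block, within the slide or without MEF 2 and 3. Slco1a1 had -0.024 with quantile normalization, -0.028 in the deposited table and -0.35 under the same 3 settings. Slco1a4 had -0.018 with 3 separate MEF arrays and -0.12 to 0.11 with 1 array left out. Slc10a1 had 0.068 centred on the median, 0.13 with 3 MEF arrays and -0.092 to 0.40 with 1 array left out. With 1 array left out, Nr1i3 ranged from -0.22 to 0.36 and Abcc1 from -0.32 to 0.027. In iHep against hepatocytes, Rala had 0.077 and Ceacam1 -0.18 as means over probes, and Ceacam1 ranged from -0.52 to 1.13 with 1 array left out. The cause was not tested. Signal near background limits the values of Slco1a1, Slco1a4, Slco1b2, Slc22a7 and Abcc2 outside hepatocytes.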
